A study of Saccharomyces cerevisiae with 3 samples.

Results

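The arrays compared here followed diploid yeast cells lacking *SUM1* through their second 20 minutes in rich medium. The Δ*sum1* cells were SK1 diploids (JPY214). After 6 hours in SPM, a sporulation medium with acetate but without nitrogen, cells were transferred to the glucose medium YPD, which also supplies nitrogen. The comparison takes 2 of the 3 arrays of the series, the array of cells after 40 minutes in YPD and that of cells after 20 minutes in YPD, with 1 array for each time. The Cy3 channel of both arrays held the same RNA of wild-type SK1 diploids (NKY1551) that grew in YPA, where acetate replaces the glucose of YPD. A log2 ratio is therefore log2 of Δ*sum1* (Cy5) over wild type in YPA (Cy3), and a change is the log2 ratio at 40 minutes minus that at 20 minutes. The protocol text assigns the dyes in the opposite sense, whereas the channel labels and the scanner headers place the Δ*sum1* RNA in Cy5. Of 6218 genes on the arrays, each a PCR product in 2 adjacent spots, 5423 were measured, that is, above the floor on signal in both channels and both spots on both arrays.

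Sum1 is a repressor that holds mid-sporulation genes silent in dividing cells, together with the histone deacetylase Hst1 and the linker protein Rfm1. During sporulation the activator Ndt80 takes over the same promoters and switches on the genes of the meiotic divisions and of the spore wall. When sporulating cells receive glucose and nitrogen, they face both programs, since rich medium induces genes of ribosome production and fermentation and represses genes of respiration, gluconeogenesis and scavenging.

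The labels and the depth of the arrays were checked first. The deleted gene *SUM1* stood at -1.63 ± 0.16 on the log2 scale at 40 minutes and at -1.41 ± 0.01 at 20 minutes (SD of 2 spots), with 847 and 1028 measured genes lower still, and its change was 0.23 in Cy5 alone. Its mean Cy5 signal was 904 at 40 minutes and 1304 at 20 minutes. The buffer spots had means of 1236 and 1304 and medians of 438 and 460, so that the signal of *SUM1* lay above the median of the buffer spots at both times and below their mean at 40 minutes, and these arrays do not show its RNA to be absent. The array at 40 minutes was the dimmer of the pair, with a median Cy5 signal of 1616 against 2748 at 20 minutes and a median Cy3 signal of 2811 against 3399. The SD between duplicate spots, pooled over genes, was 0.18 for the log2 ratio at 40 minutes, 0.16 at 20 minutes and 0.23 for the change of a single spot. Duplicate spots share a culture, a labeling reaction and a slide, so this SD is technical. With 1 array a side no test was made, and the time in YPD and the slide cannot be told apart. Cells kept in SPM for the same time were not analysed here.

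Most genes stood at 40 minutes where they stood at 20 minutes. The log2 ratios of the 2 times correlated at 0.96 across genes (Pearson, n = 5423 genes that share both slides and the reference), and 3379 genes, 62.3%, were within 1.3-fold. The median change was -0.04, with quartiles of -0.32 and 0.26 and an SD of 0.49. At 40 minutes 458 genes were higher by at least 1.5-fold (8.45% of those measured) and 570 were lower (10.5%). Both spots passed this limit in 322 of the higher genes (5.94%) and in 393 of the lower (7.25%). Past 2-fold there were 101 higher genes (1.86%) and 147 lower (2.71%).

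The split between higher and lower genes depended on the scaling. Higher genes made up 44.6% of those past 1.5-fold here, 24.1% with the mean of the buffer spots as floor, 55.5% after normexp background correction and 59.6% in the Cy5 channel alone. Those settings moved the median change of all measured genes from the -0.04 given above to -0.20, 0.05 and 0.08. The Cy3 channel, which held 1 RNA on both slides, had an SD of change of 0.48 across genes, beside 0.61 for Cy5, and the 2 channels' changes correlated at 0.62. Position on the slide also moved with the change, since the medians of the 48 subarrays ran between -0.31 and 0.23. The part of these technical differences in single genes was not tested. Where the Cy5 channel alone gave the opposite sign for a named gene, that value is given with it or in the closing section.

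**Figure D1:**
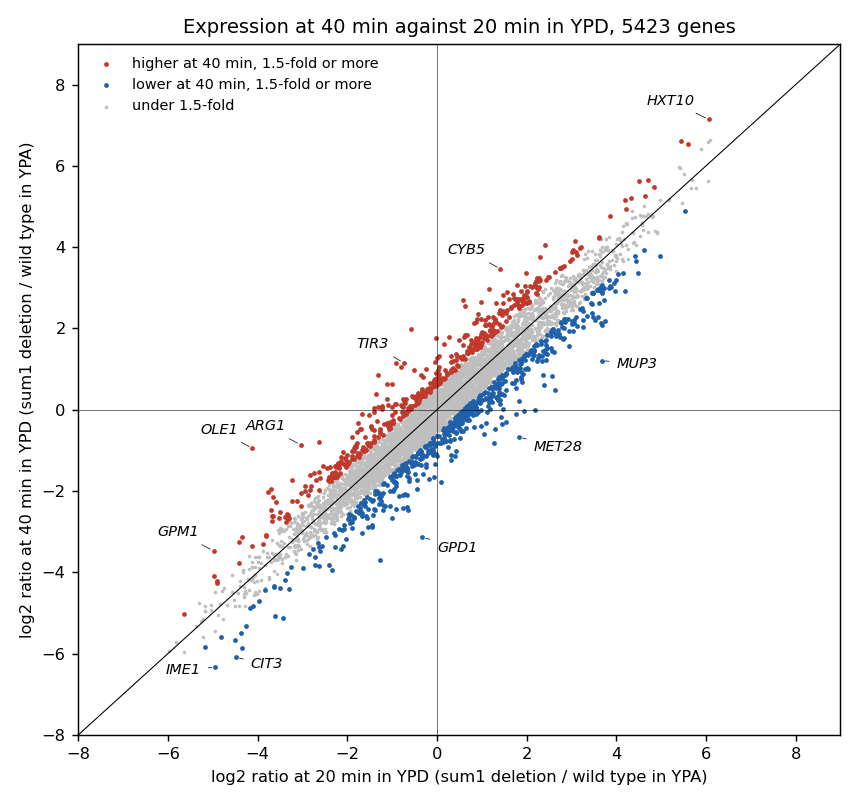
Log2 ratio of Δ*sum1* cells over wild type in YPA at 40 minutes in YPD (vertical axis) against that at 20 minutes (horizontal axis), for the 5423 measured genes, each the mean of 2 spots. The 458 genes above the upper limit of 1.5-fold are red, the 570 below the lower limit are blue, and the diagonal marks no change.

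Read against the wild-type reference, genes still moved in both directions, but more of them turned back than went further. The 20 minute array had 1512 genes above the reference by 2-fold or more. Of these, 131 (8.66%) moved on upwards by at least 1.5-fold by 40 minutes, 218 (14.4%) returned towards the reference by as much, and 853 (56.4%) held within 1.3-fold. Of 1411 genes at least 2-fold below it, 106 (7.51%) moved on downwards, 157 (11.1%) returned and 919 (65.1%) held. Only a few genes changed side, with 7 crossing upwards and 3 downwards by at least 1.5-fold on each side. Late movers were genes within 1.3-fold of the reference at 20 minutes and at least 2-fold from it at 40 minutes. Of 1005 such starters, 13 (1.29%) were late and up, and 29 (2.89%) were late and down. The class and the change share the value at 20 minutes, so an error there moves a gene towards a return. When the class was taken from the first spot and the change from the second, which share the slide but not the spot, 20 genes were late and up, and no other of these classes moved by over 1.5 times. An error common to both spots, of the slide or the labeling, stays in the class and the change, and its part was not tested.

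The strongest common fall was in the genes that take up and reduce sulfur. This pathway imports sulfate, activates it, reduces it to sulfide and builds it into methionine and cysteine, and its genes are known to be induced by the activator Met4 with its cofactor Met28 when methionine runs short. Of 25 measured genes, 16 were lower by at least 1.5-fold and 2 were higher, with a median change of -0.76 beside -0.04 over all measured genes. Their median log2 ratio was 0.58 at 40 minutes and 1.76 at 20 minutes, so that 13 of the 20 genes far above the reference at 20 minutes were on their way back.

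*MET28* had a log2 ratio of -0.67 ± 0.17 at 40 minutes and 1.83 ± 0.20 at 20 minutes, a change of -2.50 ± 0.36 (SD of 2 spots) or 5.67-fold. *MUP3*, a low-affinity methionine permease, stood at 1.21 ± 0.30 at 40 minutes and 3.68 ± 0.14 at 20 minutes, and the high-affinity permease *MUP1* at 0.48 ± 0.17 and 2.63 ± 0.08. In all 3 genes both spots at 40 minutes lay below both spots at 20 minutes. The enzymes of the reduction route were lower as a group. The ATP sulfurylase *MET3* had log2 ratios of -0.04 ± 0.05 at 40 minutes and 1.95 ± 0.02 at 20 minutes. The sulfite reductase subunits *MET5* and *MET10* had -0.30 ± 0.09 and -0.35 ± 0.21 at 40 minutes, and 1.54 ± 0.05 and 1.46 ± 0.02 at 20 minutes. *MET17*, which joins sulfide to *O*-acetylhomoserine to form homocysteine, had -0.81 ± 0.03 at 40 minutes and 1.27 ± 0.01 at 20 minutes. *MET17* and *MET28* crossed from above the reference to below it, *MET3*, *MET5* and *MET10* came back to within 1.3-fold of it, and *MUP1* and *MUP3* remained above it.

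The steps between *MET3* and *MET5* could be read in Cy5 alone, because the reference signal of their genes was under the Cy3 floor on at least the array at 40 minutes. The APS kinase gene *MET14* had a Cy5 signal of 729.6 at 40 minutes and 12161 at 20 minutes, and the PAPS reductase gene *MET16* had 946 and 7768. Their Cy3 signals were lower as well, at 441 against 1309 for *MET14* and 377 against 627 for *MET16*. These signals are not centred, and the array at 40 minutes was the dimmer. After centring, the Cy5 changes were -3.29 and -2.28. Smaller changes were seen in the cystathionine lyase gene *STR3* (-1.05 ± 0.19), the *S*-adenosylmethionine synthetase gene *SAM2* (-1.02 ± 0.07) and the activator gene *MET4* (-0.88 ± 0.13). The change of *MET4* was -0.52 in the Cy5 channel alone. The sulfate permease gene *SUL2* changed by -0.76 ± 0.08 in the ratio and -0.04 in Cy5 alone. The genes of the list that were higher act downstream, in handling the products of methylation. *SAM4*, a homocysteine methyltransferase, had a log2 ratio of 3.49 ± 0.09 at 40 minutes and 2.74 ± 0.12 at 20 minutes, and *SAH1*, which cleaves *S*-adenosylhomocysteine, had 1.94 ± 0.04 and 1.26 ± 0.14. The change of *SAH1* was 0.46 after loess normalization, under the limit of 1.5-fold. The transsulfuration genes *CYS3* and *CYS4* changed by -0.27 and -0.46, short of it too, and *CYS3* by 0.33 in Cy5 alone.

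**Figure D2:**
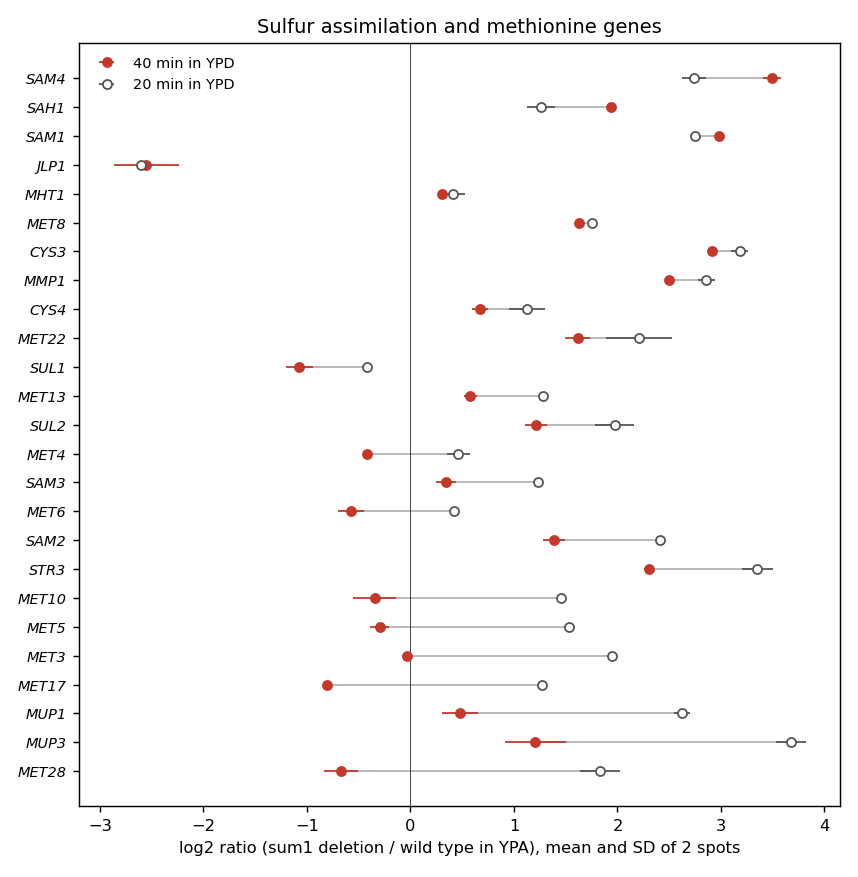
Log2 ratios of the 25 measured genes of sulfur assimilation and methionine at 40 minutes (filled) and 20 minutes (open) in YPD, as the mean and SD of 2 spots on the horizontal axis, ordered by change. In 16 genes the value at 40 minutes is lower by at least 1.5-fold, and in *SAM4* and *SAH1* it is higher.

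Genes that serve acetate-fed respiration were already low at 20 minutes, and some of them fell further. These enzymes oxidize acetyl units in the mitochondrion or turn them into sugar, and glucose is known to repress them. Of 23 measured genes of the TCA cycle, 11 were lower by at least 1.5-fold and 0 were higher, with a median change of -0.49. At 20 minutes 17 of the 23 were already 2-fold or more below the reference, and 9 of the 11 were among these and moved on downwards. *IDH2*, a subunit of isocitrate dehydrogenase, had a log2 ratio of -2.41 ± 0.11 at 40 minutes and -0.75 ± 0.02 at 20 minutes, and its partner *IDH1* had -5.07 ± 0.25 and -3.62 ± 0.21. The succinate dehydrogenase gene *SDH1* had -5.87 ± 0.38 at 40 minutes and -4.34 ± 0.05 at 20 minutes. *CIT3* and its neighbor *PDH1*, which act in the methylcitrate route of propionate breakdown, had -6.10 ± 0.12 and -5.13 ± 0.34 at 40 minutes, and -4.48 ± 0.10 and -3.43 ± 0.21 at 20 minutes. The Cy5 signals of *SDH1* and *CIT3* at 40 minutes, 377 and 352, were under the buffer median of 438, so their log2 ratios at that time are not well measured. At the other end of the list, *MAE1*, the malic enzyme, and *SDH2* changed by 0.40 ± 0.11 and 0.32 ± 0.29. The TCA list holds bright spots. For 18 of its 23 genes a spot exceeded 30000 in a channel at either time. Without such spots only 5 genes were left, with a median change of -0.15 and 1 lower. In the Cy5 channel alone the median of the 23 genes was -0.17, with 5 genes lower and 2 higher.

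Of 32 measured genes of gluconeogenesis, the glyoxylate cycle and acetate use, 7 were lower (21.9%) and 2 were higher (6.25%). All measured genes had shares of 10.5% and 8.45%, and the median change of the list was -0.23. In Cy5 alone the median was 0.01, with 4 lower and 4 higher. For 16 of the 32 a spot exceeded 30000 in a channel. Without such spots 16 genes were left, with a median of -0.07, 1 lower and 1 higher. *CIT2*, the peroxisomal citrate synthase, had a log2 ratio of -2.46 ± 0.00 at 40 minutes and -0.65 ± 0.06 at 20 minutes, and *MDH2*, the cytosolic malate dehydrogenase, had -1.71 ± 0.06 and -0.18 ± 0.01. *MDH2* was thus among the late movers. The acetyl-CoA synthetase genes went opposite ways. *ACS2*, the form used on glucose, was at -2.28 ± 0.18 at 40 minutes and -3.58 ± 0.12 at 20 minutes, whereas the Cy5 signal of *ACS1*, the form used on acetate, was under the floor at 40 minutes (223) and at 1862 at 20 minutes, which makes *ACS1* at least 2.51-fold lower. *MLS1*, a malate synthase, averaged a change of 0.79 ± 1.18, with spots that disagreed.

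Of 37 respiratory chain and ATP synthase genes, 8 were higher (21.6%) and 4 lower (10.8%), beside 8.45% and 10.5% of all measured genes. The median change of the list was 0.28. Apart from the external NADH dehydrogenase gene *NDE2* (0.61), the higher genes were of cytochrome *c* and of the complexes that bind it. *CYC1*, the major cytochrome *c*, had a log2 ratio of -0.10 ± 0.04 at 40 minutes and -1.68 ± 0.15 at 20 minutes, and *QCR8* of the cytochrome *bc* complex had -1.37 ± 0.15 and -2.54 ± 0.18. All 8 were far below the reference at 20 minutes, as were 32 of the 37, and returned towards it. The lower genes included *NDI1*, the internal NADH dehydrogenase (-3.86 ± 0.21 at 40 minutes and -2.64 ± 0.01 at 20 minutes), and *GUT2*, the mitochondrial glycerol-3-phosphate dehydrogenase, whose change of -0.80 ± 0.09 shrank to -0.28 in Cy5 alone. The outer-membrane channel gene *POR1* moved on downwards as well, to -3.95 ± 0.23 at 40 minutes, against -2.34 ± 0.02 at 20 minutes. Mitochondrial ribosomal protein genes stayed in place, with 52 of 67 within 1.3-fold, 0 higher and 2 lower. Their extremes were *MRPS16* and *MRPL13*, each 0.53 higher, *MRPL17* with -0.63 ± 0.16, and *MRPS8*, whose spots disagreed (-0.85 ± 1.55, and 0.33 in Cy5 alone).

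The largest fall of any measured gene was in *GPD1*, which makes glycerol 3-phosphate and is known for its response to osmotic stress. Its log2 ratio was -3.13 ± 0.14 at 40 minutes and -0.32 ± 0.04 at 20 minutes, a change of -2.81 ± 0.18 or 7.01-fold. The Cy5 signal was 2121 at 40 minutes and 20407 at 20 minutes, while the Cy3 signal of the reference was 31772 and 32068. The array identifier YDL023C, which has no match in the annotation used here and whose systematic number is next to that of *GPD1* (YDL022W), changed with it, at -3.70 ± 0.05 at 40 minutes and -1.27 ± 0.15 at 20 minutes. Double-stranded spots do not tell the strands apart, so overlapping transcripts are counted together.

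Genes of hexose uptake, glycolysis and fermentation, *GPD1* included, were mixed. Of 45 measured, 3 were higher (6.67%) and 7 lower (15.6%), beside 8.45% and 10.5% of all measured genes. The hexose transporter gene *HXT6* had -1.96 ± 0.00 at 40 minutes and -0.45 ± 0.19 at 20 minutes. Its near-identical copy *HXT7* gave no value at 40 minutes, where both Cy3 spots and 1 of the Cy5 spots were under the floor. *GPM1*, the phosphoglycerate mutase, went the opposite way, with -3.47 ± 0.02 at 40 minutes and -4.98 ± 0.22 at 20 minutes. *HXT10*, a transporter gene that was the highest of this list at both times, had 7.14 ± 0.14 and 6.07 ± 0.03, but its change was 0.44 after normexp correction.

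Genes of the meiotic divisions were lower in 9 of 31 measured cases (29.0%), beside 10.5% of all measured genes. The list includes cyclins, the anaphase-promoting complex and its activators, which drive exit from meiosis. Of the rest, 1 was higher and 21 lay between the limits, with a median change of -0.47 over the list. All 9 lower genes were returning from far above the reference at 20 minutes, where 24 of the 31 stood. *SWM1*, a subunit of the anaphase-promoting complex, had a log2 ratio of 2.27 ± 0.09 at 40 minutes and 3.47 ± 0.03 at 20 minutes, but its change in Cy5 alone was -0.29. *CNM67*, of the spindle pole body, had 2.70 ± 0.04 and 3.73 ± 0.06. *AMA1*, the meiosis-specific activator of the complex, was the 1 higher gene, with 4.15 ± 0.10 and 3.08 ± 0.24, and in Cy5 alone its change was -0.44. *CDC16* had a change of 0.20 ± 0.14. Loess normalization left 4 genes of this list lower.

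Those spore wall and prospore membrane genes that were measured did not move as a group. Of 31 measured, 4 were lower (12.9%) and 3 higher (9.68%), beside 10.5% and 8.45% of all measured genes. Their median change was -0.22. The lower included *SHC1*, an activator of chitin synthesis (1.77 ± 0.06 at 40 minutes and 2.82 ± 0.20 at 20 minutes), and *MUM3* (2.06 ± 0.15 and 3.11 ± 0.18). The higher were the chitin deacetylase gene *CDA2* (6.54 ± 0.09 and 5.59 ± 0.13), *SPS4* (5.66 ± 0.36 and 4.71 ± 0.05) and the septin gene *CDC3* (3.18 and 2.29). For 18 further genes only the Cy3 signal was under the floor on an array, and their Cy5 changes had a median of 0.56, with 8 higher and 4 lower. In Cy5 alone the 5423 measured genes had a median change of 0.08, with 990 higher and 671 lower. *DIT1*, which acts in dityrosine synthesis for the outer spore wall, had a Cy5 signal of 6168 at 40 minutes and 3487 at 20 minutes although the array at 40 minutes was the dimmer. *SMA1*, of prospore membrane growth, had 8783 at 40 minutes and 31061 at 20 minutes, and *SSP1*, of the leading edge of that membrane, 10462 and 30925. After centring on the array these were Cy5 changes of 1.59 ± 0.12, -1.06 ± 0.11 and -0.80 ± 0.00. These 3 genes were chosen after their values were seen.

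Meiotic regulators were lower in 5 of 16 genes (31.25%) and higher in 1 (6.25%), with a median change of -0.31. Among all measured genes the shares were 10.5% and 8.45%. *IME1*, the inducer of meiosis, was far below the reference at both times, at -6.33 ± 0.11 at 40 minutes and -4.94 ± 0.19 at 20 minutes. Its Cy5 signal was 306 at 40 minutes, under the buffer median of 438, and 893 at 20 minutes, so the size of its change is not well measured. *RIM4*, an RNA-binding protein that controls meiotic translation, was at -1.12 ± 0.01 and 0.32 ± 0.04, and so started late. The kinase gene *IME2* was above the reference at both times, with 3.12 ± 0.00 at 40 minutes and 3.94 ± 0.07 at 20 minutes. *HST1*, the deacetylase partner of Sum1, had 1.45 and 2.36. *NDT80* and the spore wall kinase gene *SMK1* had a reference signal under the Cy3 floor, and their Cy5 changes were -0.13 ± 0.05 and -0.53 ± 0.23. The signal of *NDT80* in Cy5 was 12523 at 40 minutes and 23318 at 20 minutes. *RIM15*, a kinase of nutrient starvation, was the 1 higher gene, with 0.89 ± 0.02 and 0.21 ± 0.29. *RME1*, the repressor of meiosis, changed by 0.39 ± 0.36.

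Of 29 early meiosis genes on the arrays, 14 were measured. Of these, 12 were within 1.3-fold, and *CSM4* was the 1 past 1.5-fold (-1.62 ± 0.21 at 40 minutes and -2.21 ± 0.11 at 20 minutes). *RED1*, *SPO1* and *SPO16*, the other extremes, changed by 0.37 ± 0.30, -0.42 ± 0.33 and -0.35 ± 0.21. For 7 further genes only the Cy3 signal was under the floor on an array. Their Cy5 changes had a median of -0.09, with 0 higher and 2 lower. The recombination genes *MEI5* and *NDJ1* were lower in Cy5, at -1.42 ± 0.17 and -1.19 ± 0.17.

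Of 31 measured genes of the G2 and M phases of mitotic growth, 10 were lower (32.3%) and 1 was higher (3.23%). All measured genes had shares of 10.5% and 8.45%, and this list had a median change of -0.42. Here 27 of 31 changes were below 0, in a list whose median log2 ratio was -0.06 at 40 minutes and 0.42 at 20 minutes. *HOF1*, which acts in cytokinesis, had -1.77 ± 0.15 and 0.08 ± 0.09, a late fall. The mitotic kinase gene *ALK1* had -0.41 ± 0.07 at 40 minutes and 0.99 ± 0.03 at 20 minutes, and the mitotic cyclin gene *CLB2* -0.54 and 0.42. *TUB4*, gamma-tubulin, was the higher gene (0.62 ± 0.33), and *TEM1* changed by 0.25 ± 0.13. With signals over 1000 required in every spot, 15 genes were left and 2 of them were lower.

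Replication and G1 genes moved little as lists, beside 8.45% of all measured genes higher and 10.5% lower. Of 59 replication genes 5 were higher (8.47%) and 2 lower (3.39%). Of 18 G1 genes 3 were higher (16.7%) and 1 lower (5.56%). Within these lists *RFC1*, of the clamp loader, had 2.65 ± 0.18 at 40 minutes and 0.99 ± 0.00 at 20 minutes. *MCM3*, of the replicative helicase, had 0.62 ± 0.10 and -1.01 ± 0.11. The G1 cyclin gene *CLN3* had 0.24 ± 0.07 and -0.42 ± 0.03, and the inhibitor gene *SIC1* -1.40 ± 0.04 and -2.18 ± 0.14. Centring within each subarray left 0 of the 18 G1 genes higher and 0 lower, and 5 and 2 of the 59 replication genes. The lowest changes were those of *RNR2*, of ribonucleotide reductase (-0.76 ± 0.14), *PSF2* (-0.65 ± 0.23), *CDC28* (-0.64 ± 0.02) and *HCM1* (-0.57 ± 0.18), and in Cy5 alone each of the 4 was within 1.5-fold. Histone genes and their regulators had a median change of -0.30. *HTB1* had -0.78 ± 0.04 at 40 minutes and 0.28 ± 0.02 at 20 minutes, and *HHF1* -0.62 ± 0.03 and 0.27 ± 0.07, beside the corepressor genes *HIR1* and *HIR3*, which were 0.60 ± 0.01 and 0.61 ± 0.05 higher. Histone genes of a pair are near-identical and may share signal. In Cy5 alone *HHF1* changed by -0.26 and *HIR1* by -0.13.

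The largest common rise outside the ribosome was in lipid synthesis. Of 37 measured genes of sterol, fatty acid and phospholipid synthesis, 17 were higher by at least 1.5-fold and 1 was lower, with a median change of 0.47. Many of these enzymes use molecular oxygen, and the pathway runs through mevalonate and squalene to ergosterol, the sterol of fungal membranes. The median log2 ratio was -0.39 at 40 minutes and -1.22 at 20 minutes, and 11 of the 20 genes that were far below the reference at 20 minutes were returning towards it. The 1 gene of the list without a measured ratio, *ELO3*, had only its Cy3 signal under the floor, and its Cy5 change was -1.54.

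*OLE1*, the fatty acid desaturase and the gene with the largest rise of all those measured, had a log2 ratio of -0.95 ± 0.01 at 40 minutes and -4.12 ± 0.06 at 20 minutes, a change of 3.17 ± 0.06 or 9.01-fold. Its Cy5 signal was 10177 at 40 minutes and 1804 at 20 minutes, against a reference signal of 33725 and 39321. Both spots at 40 minutes were far above both at 20 minutes. *CYB5*, the cytochrome that passes electrons to sterol and lipid desaturases, was not in the list and had 3.47 ± 0.09 and 1.41 ± 0.04.

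Early steps of the sterol route were unequal. *HMG1*, the HMG-CoA reductase that sets the pace of the pathway, had -1.94 ± 0.17 at 40 minutes and -3.70 ± 0.02 at 20 minutes, whereas its isozyme gene *HMG2* changed by 0.23 ± 0.01. *ERG20*, the farnesyl diphosphate synthase, had -1.73 and -3.23. *ERG10*, the thiolase at the start, had a change of -0.58 ± 0.31, and *IDI1*, the isopentenyl diphosphate isomerase, had -0.10 ± 0.05 and 0.70 ± 0.10, although in Cy5 alone it was 0.54 higher. Late steps, from squalene to ergosterol, were mixed. *ERG2*, the sterol isomerase, had 1.77 ± 0.01 at 40 minutes and -0.02 ± 0.01 at 20 minutes, and *ERG5*, the desaturase, 0.39 and -1.36. *ERG11*, the lanosterol demethylase that azole drugs bind, had 2.13 and 0.82, *ERG6*, the methyltransferase, 0.01 and -1.22, and *ERG1*, the squalene epoxidase, 1.60 and 0.57. Late genes that did not pass 1.5-fold included *ERG4*, *ERG7*, *ERG9*, *ERG24* and *ERG25*, with changes of -0.18, -0.31, 0.34, 0.46 and 0.39. In Cy5 alone *ERG4* and *ERG7* were at 0.94 and 0.18. The activator genes of the pathway, *UPC2* and *ECM22*, had changes of -0.43 and -0.38, which in Cy5 alone were 0.47 and -1.38. The phospholipid genes *CHO1*, *CHO2* and *OPI3* stayed within 0.03 of their ratio at 20 minutes. Centring within each subarray lowered the median of the list to 0.29, with 16 genes higher.

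**Figure D3:**
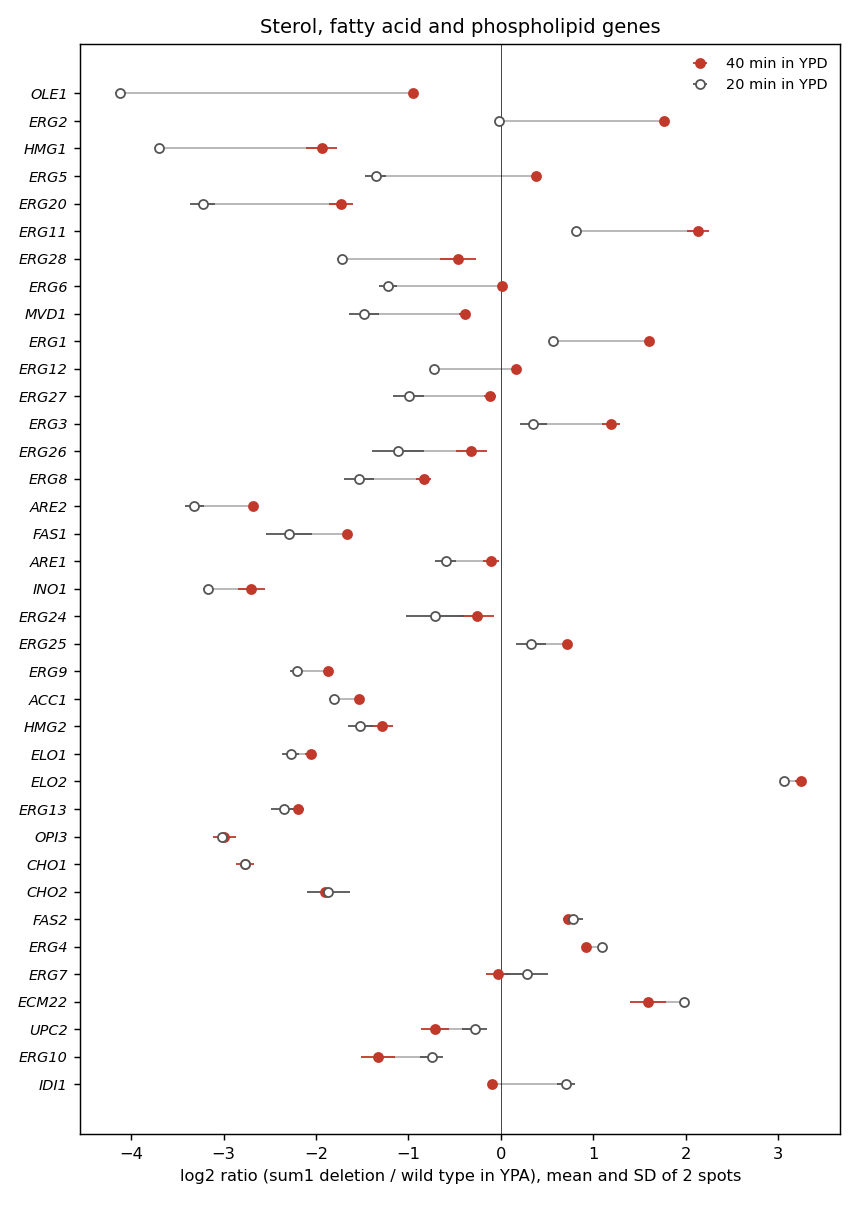
Log2 ratios of the 37 measured genes of sterol, fatty acid and phospholipid synthesis at 40 minutes (filled) and 20 minutes (open) in YPD, as the mean and SD of 2 spots on the horizontal axis, ordered by change. *OLE1* stands apart at the top with a change of 3.17, and *IDI1* is the 1 gene lower by at least 1.5-fold.

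Ribosomal protein genes were mostly above the reference already, and 50% of them were higher still. Of 130 measured, 65 were higher by at least 1.5-fold and 0 were lower, and 126 changes were above 0. Their median log2 ratio was 2.23 at 40 minutes and 1.59 at 20 minutes, with a median change of 0.59, and 46 of the 98 that were far above the reference at 20 minutes moved on upwards. *RPL43A* had 2.37 ± 0.24 at 40 minutes and 0.92 ± 0.02 at 20 minutes, and its paralog *RPL43B* -1.33 ± 0.10 and -1.03 ± 0.00. *RPL26B* had the highest change, 1.64 ± 0.17, but -0.043 in Cy5 alone. *RPL40B*, at -0.56 ± 0.14, had the lowest. Paralogs that are near-identical in sequence may share signal on spotted PCR products.

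These genes are also the brightest on the slide. For 121 of the 130 a spot exceeded 30000 in a channel, and 120 of them were in the brightest eighth of the measured genes. In that eighth the 558 other genes had a median change of 0.03, with 82 higher and 68 lower. The part of brightness in the change of the ribosomal protein genes was not tested. Loess normalization, which removes trends with signal within an array, lowered the median of the list to 0.30 with 37 higher and 1 lower, and in Cy5 alone it was 0.83 with 118 higher.

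The genes that build ribosomes did not go with the ribosomal proteins. Of 113 measured genes of ribosome biogenesis, 4 were higher (3.54%), 15 were lower (13.3%) and 72 stayed within 1.3-fold. The lower share was near the 10.5% of all measured genes, and the higher share was under their 8.45%. These genes had a median change of -0.14. Loess normalization moved it to 0.03 and left 4 genes higher and 8 lower. The median log2 ratio was 2.91 at 40 minutes and 3.08 at 20 minutes, and all 15 lower genes were returning from far above the reference. *PWP2*, of the small-subunit processome, had 0.61 ± 0.11 at 40 minutes and 2.38 ± 0.17 at 20 minutes. Another processome gene, *UTP13*, had 0.23 ± 0.14 and 1.36 ± 0.02, but -0.45 as the change in Cy5. On the other side, *NOP1*, fibrillarin, had 3.75 ± 0.03 and 2.30 ± 0.00, though 0.33 as the change in Cy5, and the nucleolin-like gene *NSR1* had 5.17 ± 0.08 and 4.20 ± 0.01. Genes of RNA polymerases I and III were within 1.3-fold in 28 of 31 cases, between *TFC8* (0.55 ± 0.25) and *RPC53* (-0.62 ± 0.21), with *TFC7* at 0.34 ± 0.31 and *TFC3* at -0.42 ± 0.13, which was 0.25 in Cy5 alone. Of 38 translation factor genes 4 were higher (10.5%) and 1 lower (2.63%), beside 8.45% and 10.5% of all measured genes. *TEF4*, of elongation, had 2.46 ± 0.04 at 40 minutes and 1.56 ± 0.05 at 20 minutes, and *ANB1*, a translation factor gene expressed without oxygen, 0.81 ± 0.22 and -0.32 ± 0.13. The initiation factor genes *TIF5* and *GCD11* had changes of -0.70 ± 0.00 and -0.55 ± 0.00.

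**Figure D4:**
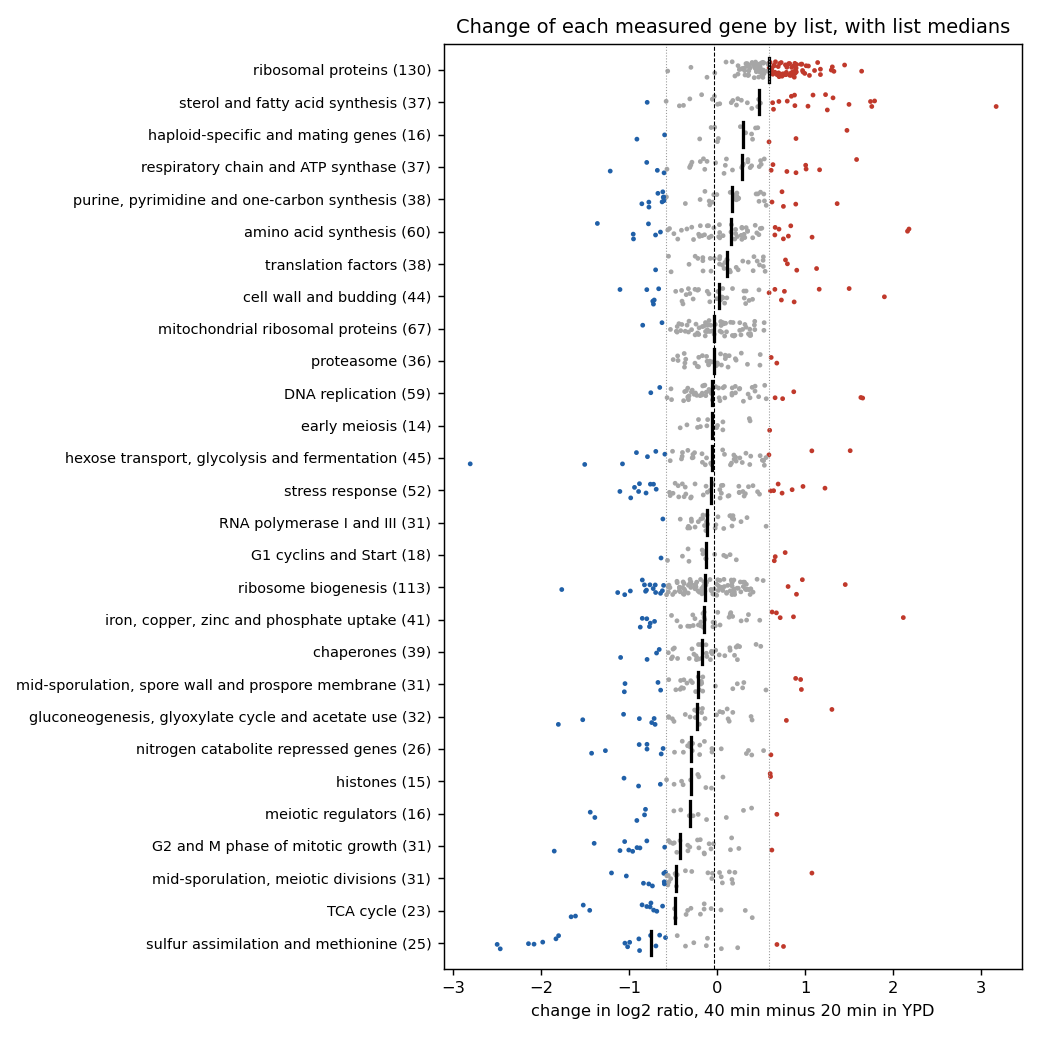
Change in log2 ratio, 40 minutes minus 20 minutes in YPD (horizontal axis), of each measured gene of the 28 lists, with the number measured beside each name. Thick bars are list medians, the dashed line is the median of all measured genes (-0.04), dotted lines mark 1.5-fold, and the lists run from ribosomal proteins at the top (0.59) to sulfur assimilation at the bottom (-0.76).

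Among other biosynthetic genes, arginine synthesis held a large rise. *ARG1*, argininosuccinate synthetase, had -0.86 ± 0.01 at 40 minutes and -3.04 ± 0.00 at 20 minutes. The ornithine carrier gene *ORT1* started late, with 1.01 ± 0.19 at 40 minutes and -0.24 ± 0.29 at 20 minutes. Over all 60 genes of amino acid synthesis, 9 were higher (15%) and 6 lower (10%), with a median change of 0.16. Over all measured genes the shares were 8.45% and 10.5%. The lower were led by *PRO3*, of proline synthesis (-3.05 ± 0.03 at 40 minutes and -1.68 ± 0.09 at 20 minutes), and *LYS12*, of lysine synthesis (0.20 ± 0.11 and 1.15 ± 0.01). Of 38 purine, pyrimidine and one-carbon genes, 5 were higher (13.2%) and 9 lower (23.7%). *GUA1*, the GMP synthase, had 3.16 ± 0.02 and 2.27 ± 0.03. *URA4*, *PRS2* and *FCY1* had changes of 1.36 ± 0.10, -0.86 ± 0.26 and -0.78 ± 0.03, which were -0.23, 0.40 and -0.29 in Cy5 alone.

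Nitrogen catabolite repressed genes scavenge poor nitrogen sources. Of 26 measured, 7 were lower (26.9%) and 1 was higher (3.85%), beside 10.5% and 8.45% of all measured genes. The ammonium permease gene *MEP3* had a change of -1.43, and *MEP1* had log2 ratios of -3.42 ± 0.34 at 40 minutes and -2.15 ± 0.06 at 20 minutes. The amino acid permease gene *BAP3* and *VBA1* changed by 0.61 ± 0.31 and 0.53 ± 0.29. Stress response genes were split evenly, with 7 of 52 higher (13.5%) and 9 lower (17.3%), beside 8.45% and 10.5% of all measured genes. The antioxidant genes *AHP1* (-0.68 ± 0.11 at 40 minutes and -1.91 ± 0.11 at 20 minutes) and *TRX2* (-2.53 ± 0.01 and -3.50 ± 0.01) were higher, and *YGP1* (-5.48 ± 0.08 and -4.38 ± 0.04) and the proteinase inhibitor gene *PAI3* (-2.24 ± 0.06 and -1.25 ± 0.00) lower. Of 39 chaperone genes 0 were higher and 4 were lower, or 10.3%, beside 10.5% of all measured genes. The chaperones of the endoplasmic reticulum *PDI1* and *KAR2* had -1.10 ± 0.13 and -0.80 ± 0.55 as their changes, and the cytosolic *CCT8* and *YDJ1* had 0.49 ± 0.10 and 0.44 ± 0.01. In Cy5 alone *CCT8* was at -0.47. Proteasome genes held, with 29 of 36 within 1.3-fold and extremes of 0.68 ± 0.00 (*RPN9*), 0.61 ± 0.19 (*RPN10*), -0.45 ± 0.15 (*PUP2*) and -0.50 ± 0.44 (*PRE1*, 0.31 in Cy5 alone).

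In the list of iron, copper, zinc and phosphate genes the largest rise was in the metallothionein gene *CUP1*, whose copies cannot be told apart by hybridization. *CUP1-1* had 2.70 ± 0.04 at 40 minutes and 0.59 ± 0.11 at 20 minutes, and *CUP1-2* 2.55 ± 0.04 and 0.63 ± 0.03. Of the 41 genes of this list 5 were higher (12.2%) and 6 lower (14.6%), beside 8.45% and 10.5% of all measured genes. Among them were the iron permease gene *FTR1* (2.53 ± 0.03 and 1.66 ± 0.14) and, lower, *FRE3* (-0.88 ± 0.00) and *VTC4* (-0.85 ± 0.23), both within 1.5-fold in Cy5 alone. Cell wall and budding genes were higher in 8 of 44 cases (18.2%) and lower in 6 (13.6%). *TIR3*, a cell wall mannoprotein, crossed upwards, with 1.15 ± 0.05 at 40 minutes and -0.75 ± 0.01 at 20 minutes, and the flocculin gene *FLO1* had 0.99 ± 0.03 and -0.51 ± 0.03. *BUD4*, which marks bud sites, had -0.45 ± 0.32 and 0.66 ± 0.08, and *PIR1* a change of -0.80 ± 0.31.

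Haploid-specific and mating genes, the markers of another cell type, gave a mixed picture. Diploids normally keep them silent. Of 28 on the arrays 16 were measured, and 3 were higher and 2 lower. Their summed Cy5 signal was 66660 at 40 minutes and 91111 at 20 minutes, 0.225% and 0.216% of that of all genes, with a median per gene of 948 and 1729. At 40 minutes 0 of the 28 had a Cy5 spot under the floor, and at 20 minutes 1 had. *AGA1*, of the agglutinin anchor, started late, with 1.63 ± 0.11 and 0.15 ± 0.02, and *AGA2*, its partner, had a Cy5 signal of 1463 at 40 minutes and 837 at 20 minutes. The G protein gene *STE18* had 4.76 ± 0.02 and 3.87 ± 0.00, and *STE4* 2.10 ± 0.30 and 3.01 ± 0.31. *FUS1* had a change of -0.60 ± 0.15, and of 0.29 in Cy5 alone. The receptor genes *STE2* and *STE3* had Cy5 signals of 554 and 865 at 40 minutes, and 653 and 2177 at 20 minutes. The median change of the 16 was 0.29, and -0.37 with the mean of the buffer spots as floor.

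Outside the lists, the class rules named further genes. Returning from above, *DRE2*, of iron-sulfur cluster assembly, had -0.01 ± 0.07 at 40 minutes and 2.19 ± 0.31 at 20 minutes. *SEC9*, a SNARE of secretion, had -0.11 ± 0.06 and 1.75 ± 0.12, and *RAD59*, of recombination, had a change of -1.77. *KAE1*, of tRNA modification, was with *MET17* and *MET28* among the 3 that crossed downwards (-0.61 ± 0.04 and 1.05 ± 0.09). Late and down were *SEO1*, a putative permease (-1.66 ± 0.12 and -0.08 ± 0.03), whose change was -0.32 in Cy5 alone, and YOR097C (-1.24 ± 0.03 and 0.30 ± 0.10).

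Returning from below were *SDS22*, a regulator of protein phosphatase (-2.02 ± 0.07 at 40 minutes and -3.78 ± 0.06 at 20 minutes), and *PRM15* (-0.78 ± 0.10 and -2.64 ± 0.06). Crossing upwards were YLR177W (1.16 ± 0.10 and -0.92 ± 0.01), YIR042C (1.05 ± 0.03 and -0.80 ± 0.26), *STE13*, a peptidase that matures alpha-factor (0.62 ± 0.09 and -1.12 ± 0.06), and *RER2*, of dolichol synthesis, whose spots disagreed at 20 minutes (1.99 ± 0.12 and -0.59 ± 1.03). Late and up were *DUG2*, of glutathione breakdown (1.79 ± 0.02 and 0.27 ± 0.10), YGL132W, which has no match in the annotation (1.28 ± 0.22 and -0.00 ± 0.13), and *PFF1*, whose spots disagreed at 40 minutes (1.33 ± 1.71 and 0.05 ± 0.16). Moving on upwards were also YGL102C and YJL188C, unmatched identifiers with changes of 1.82 ± 0.16 and 1.36 ± 0.03 that were 0.25 and 0.34 in Cy5 alone. Their systematic numbers are next to those of the ribosomal protein genes *RPL28* (YGL103W) and *RPL39* (YJL189W). Double-stranded spots count overlapping transcripts together, and the part of these neighbors was not tested. *AIR1*, of nuclear RNA surveillance, moved on upwards too (1.35 ± 0.13, and -0.30 in Cy5 alone).

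Genes whose Cy5 signal was under the floor at 1 of the times allow only a bound, computed with the floor in place of the dim signal. Under the floor at 40 minutes, after *ACS1*, came *CBP2*, at least 2.32-fold lower, and *UFD1*, at least 1.65-fold lower, followed by *CHL4* (1.39-fold) and *PCD1* (1.28-fold). Under the floor at 20 minutes were *FMP41*, with a centred ratio higher by at least 0.85 on the log2 scale, YDL196W (at least 1.78-fold higher), YDR124W (1.67-fold), *VAM10* (1.65-fold) and YGR022C (1.59-fold). All these upward bounds rest on signals at 40 minutes between 329 and 534, near the medians of the buffer spots of 438 and 460. They hold for the centred ratio only. Before centring, the Cy5 signals at 40 and 20 minutes were 376 and 372 for *FMP41*, 348 and 388 for *VAM10* and 330 and 363 for YGR022C. Those of YDL196W (534 and 351) and YDR124W (329 and 262) were higher at 40 minutes. The part of the centring and of the Cy3 signal in these bounds was not tested.

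**Figure D5:**
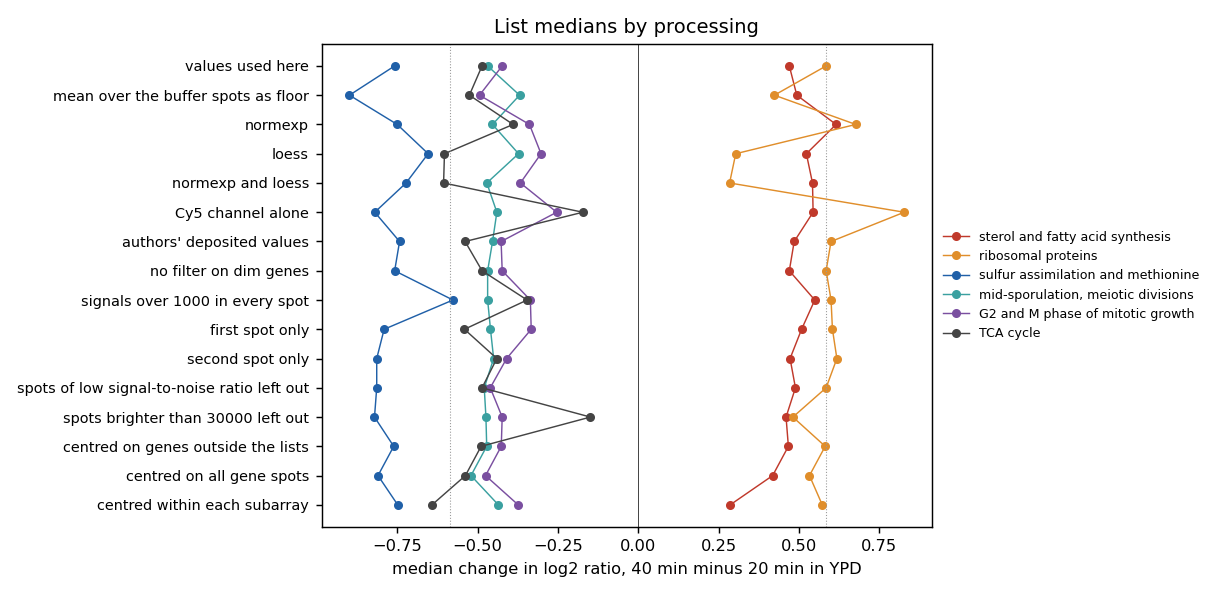
Median change in log2 ratio of 6 lists (horizontal axis) under the values used here and the 15 other settings (vertical axis). Sulfur assimilation stays lowest in every setting, and sterol and fatty acid genes and ribosomal proteins stay above 0. The TCA cycle median is -0.17 in Cy5 alone and -0.15 without bright spots. The setting without bright spots keeps 5 TCA cycle genes and 9 ribosomal protein genes.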

How the data were processed

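Per the file headers, the deposited scanner files hold an intensity and a local background per spot and channel from QuantArray version 3, with the background not subtracted. The deposited value table gives log2 ratios that the authors made by background subtraction, a floor, median centring, omission of bad spots and averaging of duplicates. Its column medians are 0. Here the background was subtracted, signals were raised to floors recovered from those values (268 in Cy5 and 455 in Cy3 at 40 minutes, 397 and 574 at 20 minutes), log2 Cy5 over Cy3 was centred on the median over the 5529 genes matched to the authors' table, and 2 spots were averaged, with no spot omitted. Values equaled the authors' within 0.001, after a constant offset, for 98.1% of 5469 genes at 40 minutes and 98.4% of 5494 at 20 minutes. Of 6218 array identifiers, 5663 had a match in R64 and 555 had none. Of 6159 probes of the table, 5562 had 1 gene symbol and 597 none. No coordinates or sequences are given.

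Limits were 1.5-fold (higher, lower), 2-fold (far) and 1.3-fold (near). Named genes were the 15 with the largest change each way with both spots past 1.5-fold, 6 of each class of movement, 2 at each end of each list, *SUM1*, *NDT80*, *IME1*, *IME2*, *SMK1*, and 5 bounds each way. The genes and the 28 lists were chosen with earlier results of these data known. There were no replicates, so no p-value is given, and precision is limited by the 2 arrays compared. The normexp and loess alternatives used limma 3.58.1 in R 4.3.3 with an offset of 50 and a span of 0.3, and the steps were tested on simulated data. A gene that met the naming rule is not reported here.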

Additional observations from a re-analysis of the deposited data

How the results depend on the processing

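Counts of higher genes (458) and lower genes (570) stayed within 1.5 times of these values under most alternatives. Higher genes numbered 155 with the mean of the buffer spots as floor, 990 in Cy5 alone, 303 with signals over 1000 required and 101 at 2-fold, and lower genes numbered 335 and 147 under the last 2 of these. The buffer floor left 2766 genes and the limit of 1000 left 3409. Genes late and up numbered 20 with class and change from different spots and 25 after loess, which also gave 17 late and down and 4 crossing upwards. The cause was not tested. The 2 list medians past 1.5-fold, of ribosomal proteins and sulfur assimilation, kept their sign under every setting. That of ribosomal proteins lay at the limit itself. It fell short of the limit with the buffer floor (0.42), after loess without and with normexp (0.30 and 0.28), and without bright spots (0.48). The other centrings also left it short (0.58, 0.53 and 0.57). The sulfur assimilation median fell just short, at -0.577, with signals over 1000 required. Of 122 named genes past 1.5-fold, 35 fell short of it in Cy5 alone. Signs turned in Cy5 alone for *PRS2* (0.40), *MRPS8* (0.33), *IDI1* (0.54), *FUS1* (0.29), *HIR1* (-0.13), *AMA1* (-0.44), *AIR1* (-0.30), *URA4* (-0.23) and *RPL26B* (-0.043). *MRPS8* was also 0.19 in the authors' values and 0.25 in the first spot, and *MLS1* was -0.14 in the authors' values and -0.048 both in the first spot and after removal of spots with poor signal to noise. Centring on all gene spots gave 383 higher and 678 lower, and centring within subarrays gave 404 and 591. Both were added after the data were seen. No paired analysis was possible because each time has 1 array and no result comes from a test. The Cy3 floor, which sets aside many sporulation genes, and the ceiling of bright spots limit what can be measured.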

Other observations

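Genes without a measured ratio numbered 795 of 6218. In 282 the Cy3 signal alone was under the floor, in 304 the Cy5 signal alone, and in 209 both. The control spots with buffer or Arabidopsis sequence had median Cy5 signals of 438 and 319 at 40 minutes and 460 and 470 at 20 minutes, so the Cy5 floors of 268 and 397 lie below them, and signals just above the floor were not separable from the control spots. Among the named genes, *TFC8*, *ERG24*, *SPO16* and *FRE3* had Cy5 signals at 40 minutes of 353, 302, 342 and 430, under the buffer median. The Cy3 signals at 40 minutes of *CDA2*, *HXT10*, *ORT1*, *STR3*, *ERG24* and *SPO16* were 639, 514, 465, 583, 622 and 626, under the Cy3 buffer median of 644.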
